A study of Mus musculus with 13 samples.

Results

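The HoxB cluster is a run of 10 homeobox genes on mouse chromosome 11 that all read in the same direction, from Hoxb13 through Hoxb9, Hoxb8, Hoxb7, Hoxb6, Hoxb5, Hoxb4, Hoxb3 and Hoxb2 to Hoxb1. Accessible regions were taken as HoxB regions when their strongest summit lay within 50 kb of the body of one of these genes, which gave the window chr11:96144316-96418256 (mm10). Of the 1357031 distinct accessible regions called in 13 libraries, 103 met this rule. The same window rule gave 256 regions for HoxA, 153 for HoxC and 241 for HoxD.

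Hox genes encode transcription factors that give cells their position along the body axis, and their order on the chromosome follows the order in which they are switched on in time and space. Genes at the Hoxb1 end are known for the hindbrain and neck, and those at the Hoxb13 end for the trunk and tail. In the limb bud the HoxA and HoxD clusters are the ones known to pattern the skeleton, while the forebrain is a tissue where Hox genes are normally silent and covered by Polycomb proteins.

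ATAC-seq, in which the Tn5 transposase marks open chromatin, was performed on 50000 cells per library from mouse embryos of the B6CBAF1 strain at E12.5. Wild-type (wt) and 542 embryos each gave forebrain (FB) and both ends of the forelimb, the proximal (PFL) and the distal (DFL), with 2 libraries per group and 12 in all. The 542 allele carries, on both chromosomes, a single copy of the limb enhancer II1 with an HBB promoter and a LacZ reporter, placed in the domain on the telomeric side of HoxD on chromosome 2. HoxB itself was unaltered, so that 542 against wt compares a cluster on another chromosome. Each library pooled several embryos, and separate pools were used for the 2 replicates. One earlier wt DFL library was processed anew by the authors and is given beside the 12, not within them. The 542 libraries were mapped to a mutant genome and the wt libraries to mm10, and the 542 limb libraries were also the shallower ones, so that genotype, mapping genome and depth cannot be told apart. In such pooled tissue, fewer cells with an open region and less opening per cell cannot be told apart either.

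Library totals were estimated at 37.5 to 70.7 M tags, with M for 1000000 (78.0 M in the earlier library), and 85070 to 118297 regions were called per library among the 12. The lowest summit of any called region held 12 to 17 tags, or 0.240 to 0.320 tags per 1000000 tags of the library (CPM), which is the level below which a HoxB region could not have been seen. Start regions of tissue markers went with the labels: Six3, a forebrain gene, had one in 4 of 4 FB and 0 of 8 limb libraries, and Tbx5, a forelimb gene, in 5 of 8 limb and 0 of 4 FB libraries. Of 4 blood markers none had a start region in any library.

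The sequences of 5 HoxB regions on which the results turn are shown first. These are the region called in all 12 libraries, the region of all limb libraries, and 3 that recurred from Hoxb9 to Hoxb5. Each is the 201 bases centred on the median summit, read 5′ to 3′ on the plus strand of GRCm38 (mm10), and distances are from the nearest annotated start of the gene. Capitals mark letters that match, on either strand and with at most 2 mismatches, the core consensus of CTCF, a zinc finger protein that holds chromatin loops together with cohesin.
Region 41.7 kb beyond the Hoxb1 start (chr11:96407820-96408020, intergenic): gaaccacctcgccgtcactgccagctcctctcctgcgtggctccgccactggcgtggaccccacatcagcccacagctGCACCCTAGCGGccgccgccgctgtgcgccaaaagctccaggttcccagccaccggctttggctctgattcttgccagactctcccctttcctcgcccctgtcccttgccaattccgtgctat
Region 47.5 kb beyond the Hoxb1 start (chr11:96413666-96413866, intergenic): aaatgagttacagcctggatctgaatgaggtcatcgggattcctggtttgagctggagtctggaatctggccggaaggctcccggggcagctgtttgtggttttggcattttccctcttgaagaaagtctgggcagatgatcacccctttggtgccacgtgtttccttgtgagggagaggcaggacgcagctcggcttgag
Region 2.93 kb before Hoxb8 (chr11:96278875-96279075, between Hoxb9 and Hoxb8): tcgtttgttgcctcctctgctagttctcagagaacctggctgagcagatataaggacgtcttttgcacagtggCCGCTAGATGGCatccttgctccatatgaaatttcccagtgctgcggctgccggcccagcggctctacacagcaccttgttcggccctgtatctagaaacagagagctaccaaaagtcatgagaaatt
Region in an intron of Hoxb6 and of the antisense gene Hoxb5os (chr11:96294609-96294809): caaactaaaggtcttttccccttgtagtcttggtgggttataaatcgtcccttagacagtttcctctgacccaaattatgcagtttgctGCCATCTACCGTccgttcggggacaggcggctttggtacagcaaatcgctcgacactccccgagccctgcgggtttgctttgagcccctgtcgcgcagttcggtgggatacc
Region at the Hoxb5 start, with its summit 90 bp before it (chr11:96303146-96303346, in an intron of Hoxb5os): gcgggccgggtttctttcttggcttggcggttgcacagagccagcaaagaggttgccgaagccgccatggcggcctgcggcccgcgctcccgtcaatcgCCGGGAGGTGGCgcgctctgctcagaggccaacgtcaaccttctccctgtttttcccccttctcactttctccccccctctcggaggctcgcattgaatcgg
Of these 5, the region 47.5 kb beyond Hoxb1 is the one without capitals.

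HoxB regions were few and narrow in every tissue, and none was among the 20000 strongest of its library. Per library, 3 to 13 HoxB regions were called, of 200 to 967 bp after joining across libraries, and their folds over local background ran from 2.41 to 9.34. Within libraries, HoxB regions had a median width of 237 to 313 bp, where all regions had 375 to 423 bp. Their median fold was above that of all regions in wt DFL replicate 1 (6.01 against 4.24), wt DFL replicate 2 (5.34 against 4.62), wt FB replicate 1 (5.02 against 4.44) and 542 FB replicate 1 (4.69 against 4.56), and below it in the other 8 libraries. The strongest of all of them, an interval inside Ttll6 at the Hoxb13 edge of the window, ranked 25897th in the wt FB replicate 1 library, so that the 20000 strongest regions of each of the 12 libraries held no HoxB region.

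Joining the 13 lists gave 27 consensus regions, of which 24 were called in at least 1 of the 12 libraries. Only 1 was called in all 12, 7 were called in 6 or more, and 9 were called in a single library. In the whole genome 10.7% of consensus regions of the 12 lists were called in all 12. No HoxB region overlapped the microRNA genes of the cluster, Mir196a-1 and Mir10a. The nearest region to Mir10a was 1306 bp away, and the nearest to Mir196a-1 was 3329 bp away. The next regions outside the window lay 3247 bp beyond its Hoxb13 edge, called in 1 of 12 libraries with a fold of 2.77, and 3418 bp beyond its Hoxb1 edge, called in 7 of 12 with folds of 2.77 to 10.1.

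**Figure D1:**
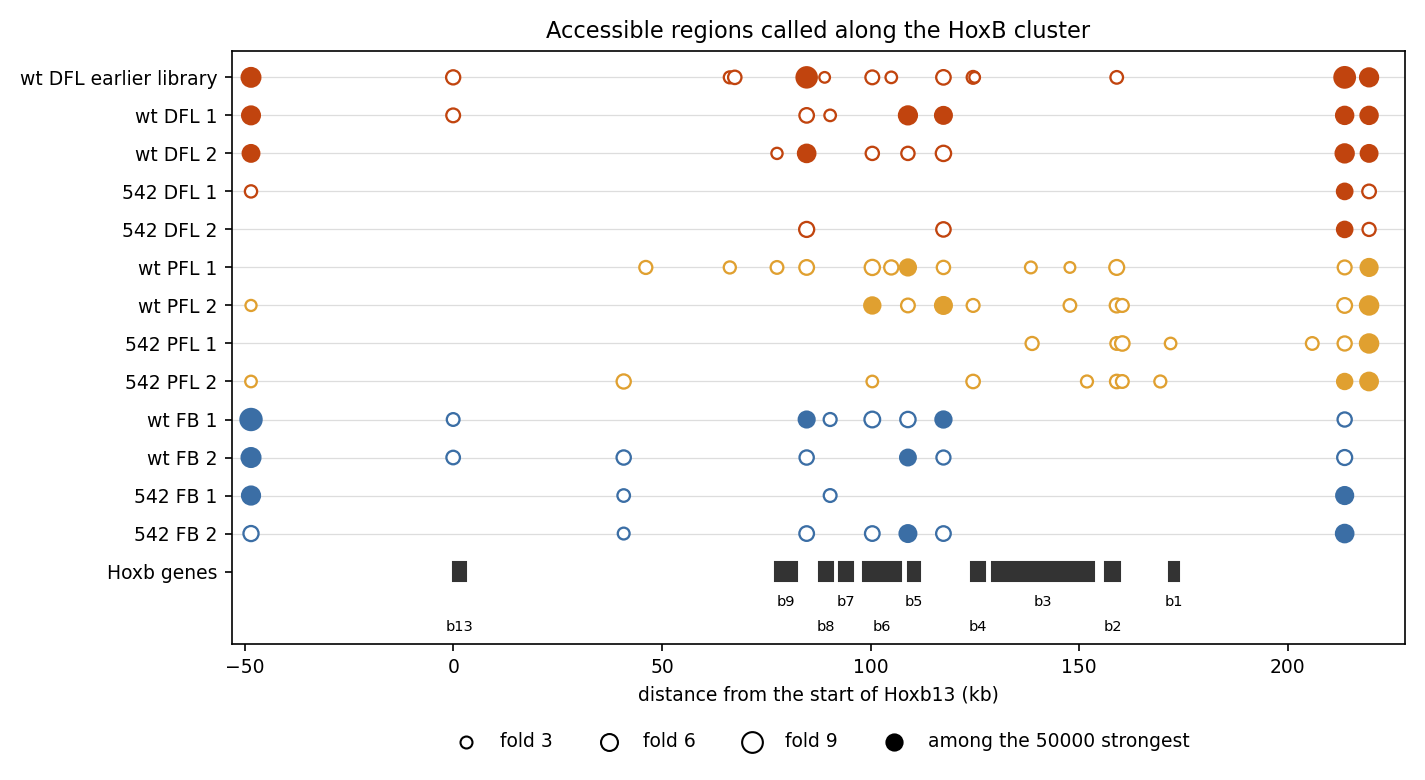
Accessible regions along the HoxB cluster in each of 13 libraries. The horizontal axis gives the distance from the Hoxb13 start in kb, each circle is a called region with its area set by the fold over background, filled circles are among the 50000 strongest regions of their library, and black boxes are the 10 genes. Circles between Hoxb4 (b4) and Hoxb1 (b1) are found in the 4 PFL libraries and the earlier wt DFL library, and circles at the far right, 47.5 kb beyond Hoxb1, in all limb libraries and in no FB library.

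HoxB held fewer regions than the other Hox clusters in the same libraries. Per 100 kb of window and over the 12 libraries, HoxB had on average 2.71 regions, HoxA 8.93, HoxC 5.25 and HoxD 8.89. The HoxB density was lower than that of HoxA in 12 of 12 libraries, of HoxD in 12 of 12 and of HoxC in 11 of 12 (exact permutation test by sign flips over libraries, two-sided, adjusted p over the 3 comparisons = 0.000732, 0.000732 and 0.000977). Among the 50000 strongest regions the means were 0.852 for HoxB, 5.03 for HoxA, 2.20 for HoxC and 4.19 for HoxD, and the same test gave adjusted p = 0.000732 for HoxA, 0.000732 for HoxD and 0.00244 for HoxC. In limb libraries HoxA and HoxD had more regions than in FB, while the HoxB levels of limb and FB overlapped. The HoxC levels of limb and FB overlapped as well among the 50000 strongest. Over all deposited regions they met, at 10 regions in wt PFL replicate 2 and in wt FB replicate 1.

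**Figure D2:**
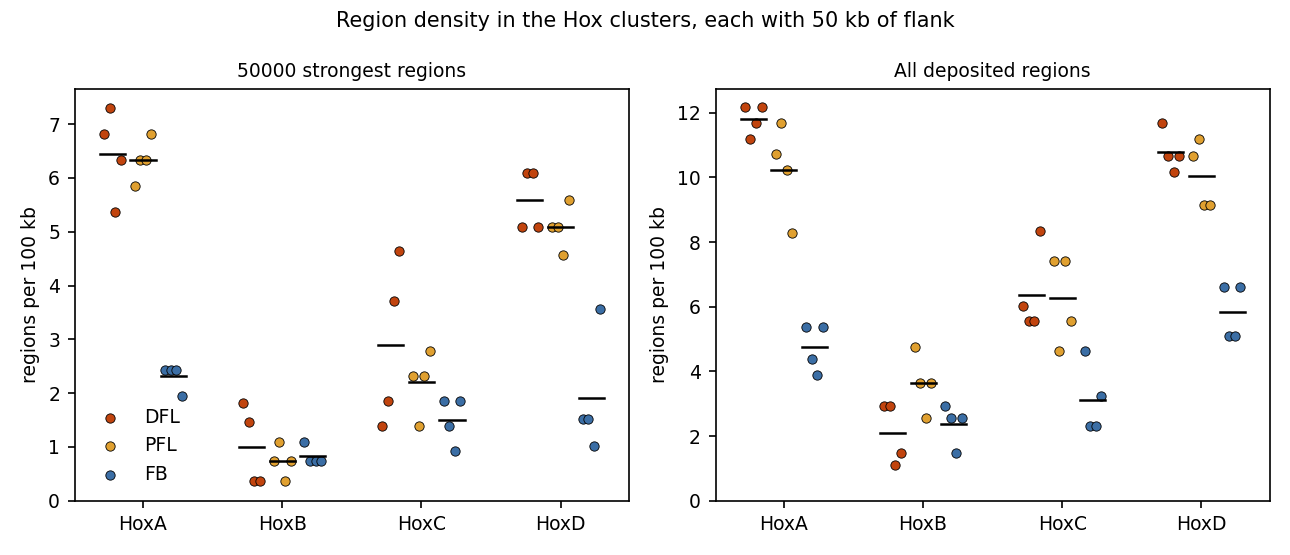
Number of accessible regions per 100 kb in the 4 Hox clusters, each with 50 kb of flank, for the 50000 strongest regions of a library (left) and for all deposited regions (right). Points are the 12 libraries coloured by tissue and bars are means of 4 libraries. HoxB has the lowest mean of the 4 clusters in each tissue, with means over all libraries of 0.852 on the left and 2.71 on the right.

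The gene starts showed the same difference. Within 1 kb of an annotated start, 0 to 4 of the 10 Hoxb genes had a region per library, against 67.4% to 69.7% of 20655 coding genes. No Hoxb gene had one in all 12 libraries, although 62.9% of coding genes did. In the 8 limb libraries 9 of 11 Hoxa genes and 9 of 9 Hoxd genes had a start region. In FB this was the case for 4 to 6 Hoxa genes and 3 to 7 Hoxd genes, and across all libraries for 4 to 7 of 9 Hoxc genes.

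Among Hoxb starts, that of Hoxb5, a gene linked to the placing of the forelimb along the trunk, was the most often accessible, in 7 of 12 libraries. The Hoxb13 start, that of a gene of the tail and prostate, was accessible in 3 of 12. Hoxb9, a gene of rib identity, and Hoxb4, known for blood stem cells, had start regions in 2 of 12 each. Hoxb6, Hoxb3 and Hoxb1 had one in a single library each of the 12, all of them PFL. Those of Hoxb3 and Hoxb1 were among the weakest regions of their libraries, at percentiles of 2.95 and 3.41. Hoxb8, Hoxb7 and Hoxb2 had none among the 12. The earlier wt DFL library had start regions at Hoxb13, Hoxb8, Hoxb6 and Hoxb4. Of the genes known to act on Hox clusters, the starts of Ezh2, Eed and Suz12 (Polycomb repression), Cbx2, Cbx8 and Rnf2 (Polycomb complexes that compact chromatin), Kmt2a (Hox activation), Ctcf and Rad21 (loops), Pbx2 and Pbx3 (HOX partners) and Rara, Rarb and Rarg (retinoic acid receptors) had a region in 12 of 12 libraries. Cdx1, Cdx2 and Cdx4, which switch on trunk Hox genes in the early embryo, had one in 6, 5 and 2 libraries, and Cyp26c1, a retinoic acid degrading enzyme, in none.

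Whether limb and FB, or DFL and PFL, differ over the cluster as a whole was asked of the number of HoxB regions and of their summed height per library. Among the 50000 strongest regions, the wt DFL libraries held 5 and 4 HoxB regions, the 542 DFL libraries 1 and 1, the wt PFL libraries 2 and 3, the 542 PFL libraries 1 and 2, the wt FB libraries 3 and 2, and the 542 FB libraries 2 and 2. Limb and FB overlapped, with means of 2.38 and 2.25 (exact permutation test, two-sided, p = 1). DFL and PFL overlapped as well, with means of 2.75 and 2.00 (exact permutation test, p = 0.657). With 4 libraries against 4 the smallest p this test can give is 0.0286. These tests pooled the genotypes. In wt alone DFL and PFL did not overlap, with means of 4.5 and 2.5, and in 542 alone they overlapped, with means of 1.0 and 1.5.

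When all deposited regions were counted, the wt DFL libraries held 8 and 8 HoxB regions, the 542 DFL libraries 3 and 4, the wt PFL libraries 13 and 10, the 542 PFL libraries 7 and 10, the wt FB libraries 8 and 7, and the 542 FB libraries 4 and 7. The earlier wt DFL library, the deepest, held 15. PFL had the most, with a mean of 10.0 against 5.75 in DFL. With the genotypes pooled the 2 tissues overlapped (exact permutation test, two-sided, p = 0.0857), and the order of these means is the reverse of that among the 50000 strongest. Within each genotype they did not overlap, with DFL and PFL means of 8.0 and 11.5 in wt and 3.5 and 8.5 in 542. With 2 libraries against 2 the exact permutation test gave p = 0.333 in each genotype, the smallest it can give. Limb and FB, with means of 7.88 and 6.50, overlapped (exact permutation test, p = 0.475).

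The summed summit height of these regions was 5.2 and 4.95 CPM in wt DFL, 1.5 and 2.22 in 542 DFL, 6.48 and 5.30 in wt PFL, 3.62 and 4.80 in 542 PFL, 4.86 and 4.07 in wt FB, and 2.31 and 4.07 in 542 FB. In each of the tissues both 542 libraries lay at or below the lower wt library. With the genotypes pooled, limb and FB differed by 0.43 CPM (exact permutation test, p = 0.667), and DFL and PFL by -1.58 (exact permutation test, p = 0.257). Within each genotype DFL lay below PFL without overlap, by -0.82 CPM in wt and -2.35 in 542. The exact permutation test gave p = 0.333 for each, the smallest it can give with 2 libraries against 2.

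The 542 libraries held fewer HoxB regions than the wt libraries. Over all deposited regions the mean per tissue was 5.83 in 542 and 9.0 in wt (exact permutation test of genotype within tissue, two-sided, p = 0.0370), and the summed height was 3.09 against 5.14 CPM (exact permutation test, p = 0.00926, the smallest it can give). Adjusted over the 6 tests of number and height, these became 0.111 and 0.0556 (exact permutation tests), so that neither passed 0.05. Among the 50000 strongest regions the means were 1.5 and 3.17 regions (exact permutation test, p = 0.0556, adjusted p = 0.167) and 1.1 and 2.42 CPM (exact permutation test, p = 0.0370, adjusted p = 0.167).

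With regions kept only above the highest of the libraries' detection levels, 0.320 CPM, the difference over all deposited regions was -2.67 regions (exact permutation test, p = 0.0463). The difference in number missed the threshold when any one of wt PFL replicate 1, 542 PFL replicate 1, wt FB replicate 1 or 542 FB replicate 1 was left out (exact permutation tests, p = 0.0556 to 0.0648), while that in height kept p between 0.00926 and 0.0278 (exact permutation tests) whichever library was left out. The same test over all deposited regions gave, in means for 542 and wt, 17.7 and 19.0 regions in HoxA (exact permutation p = 0.361), 11.7 and 11 in HoxC (exact permutation p = 0.741) and 16.7 and 18.3 in HoxD (exact permutation p = 0.167). Whether the HoxB difference exceeded those of the other clusters was not tested.

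**Figure D3:**
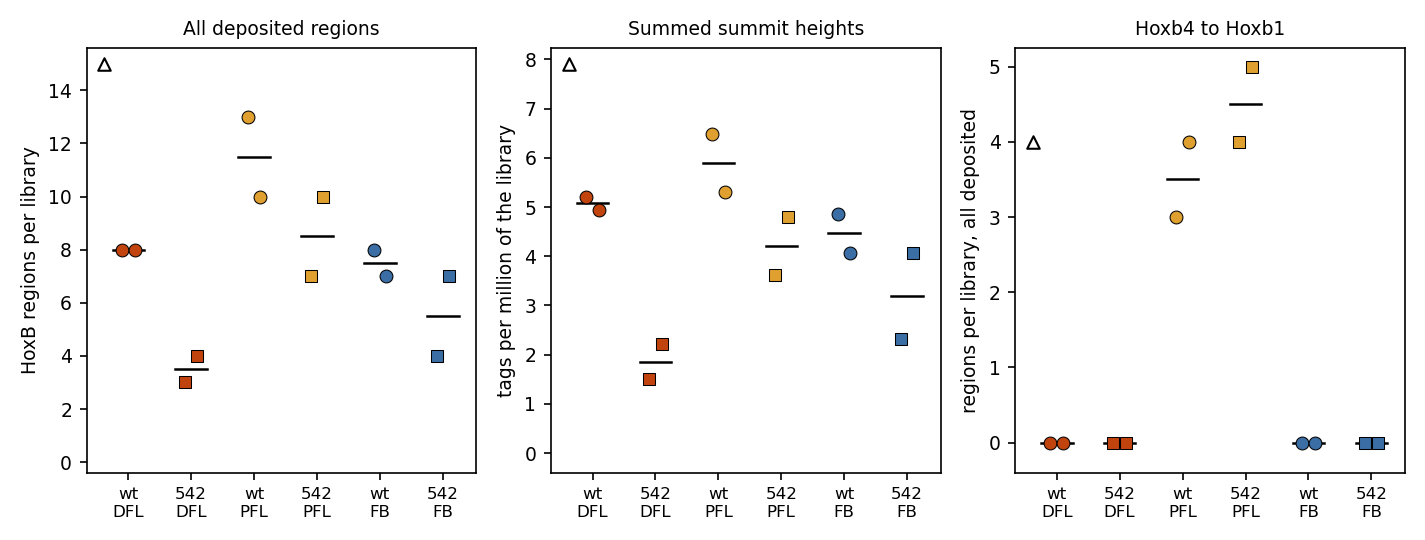
HoxB regions per library (left), their summed summit height in CPM (middle) and the regions between Hoxb4 and Hoxb1 (right), all over the deposited regions. Circles are wt and squares 542 libraries, bars are means of 2 libraries, and the open triangle is the earlier wt DFL library. In each tissue the 542 mean lies below the wt mean in the left and middle panels, and in the right panel the PFL libraries hold 3 to 5 regions, the other 8 of the 12 hold 0 and the earlier library holds 4.

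To see where along the cluster these regions lay, it was divided into 5 segments, and each region was placed by its summit. The borders were the Hoxb13 start, the middle between Hoxb13 and Hoxb9, the middle between Hoxb5 and Hoxb4, and the Hoxb1 end. The segment beyond Hoxb13 also takes in the Hoxb13 promoter, and the one from Hoxb9 to Hoxb5 takes in the nearer part of the long spacer before Hoxb9. From the Hoxb13 start to the middle of that spacer no library of the 12 had the summit of a region. The Hoxb13 start region reached across the first of these borders, with its summit before it. From Hoxb9 to Hoxb5 there were 10 consensus regions, from Hoxb4 to Hoxb1 there were 9, beyond Hoxb1 there were 3 and beyond Hoxb13 there were 2.

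The segment from Hoxb9 to Hoxb5, the part with the genes of the trunk, held 4 and 5 regions in wt DFL, 0 and 2 in 542 DFL, 8 and 3 in wt PFL, 0 and 2 in 542 PFL, 5 and 4 in wt FB, and 2 and 5 in 542 FB. All wt libraries had 3 or more, whereas in 542 only FB replicate 2 did. The means were 4.83 in wt and 1.83 in 542 (exact permutation test of genotype within tissue, p = 0.0370, adjusted p over the 5 segments = 0.185). In the other segments the genotypes differed by at most 0.667 regions.

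Within this segment the Hoxb5 start region, whose sequence is given above, had 0.826 and 0.454 CPM in wt DFL, 0.656 and 0.475 in wt PFL, 0.580 and 0.619 in wt FB and 0.720 in 542 FB replicate 2. It was not called in the other 5 libraries of 542, nor in the earlier wt DFL library. The region 6.51 kb before Hoxb4 was likewise called in 6 of 6 wt and 2 of 6 542 libraries, at 0.451 to 0.722 CPM. The region 2.93 kb before Hoxb8 was called in 5 wt and 2 542 libraries, at 0.512 to 0.795 CPM, and the one in the Hoxb6 intron in 4 wt and 2 542 libraries, at 0.347 to 0.665. Each of these 4 regions was called in at least 1 library of each tissue, though not evenly. The one before Hoxb8 was called in 3 DFL, 1 PFL and 3 FB libraries, and the one in the Hoxb6 intron in 1, 3 and 2.

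No HoxB region was called in all 6 wt and no 542 library, or the reverse. In the genome 0.0127% of consensus regions had the first pattern and 0.00794% the second over all deposited regions, and 0.0133% and 0.0151% among the 50000 strongest.

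**Figure D4:**
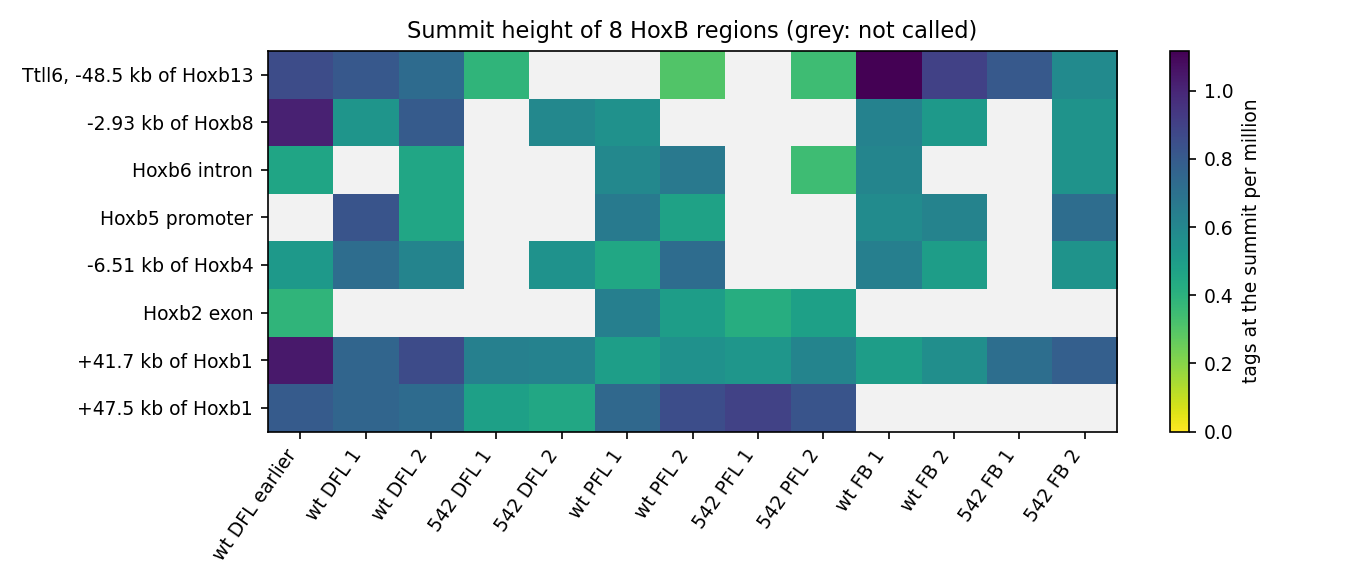
Summit height in CPM of 8 HoxB regions in 13 libraries, with grey for libraries in which the region was not called. The Hoxb2 exon row is filled in the 4 PFL libraries and the earlier wt DFL library (0.385 to 0.635), the row 41.7 kb beyond Hoxb1 in all libraries, and the row 47.5 kb beyond Hoxb1 in the limb libraries only.

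From Hoxb4 to Hoxb1, the part with the genes of the hindbrain, regions were seen in the 4 PFL libraries and the earlier wt DFL library, and not in the 4 other DFL or the 4 FB libraries. The 4 PFL libraries held 3 and 4 regions in wt and 4 and 5 in 542, and the 4 DFL and 4 FB libraries held 0 each. Among the 12 libraries the 9 consensus regions of this segment were called in PFL only, and the earlier wt DFL library held 2 of them and 1 more. None of them was among the 50000 strongest regions of a library. DFL and PFL did not overlap (exact permutation test, two-sided, p = 0.0286, the smallest it can give), and after adjustment over the 10 segment tests p was 0.143.

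The earlier wt DFL library held 4 regions in this segment, so that the pattern did not extend to the deepest DFL sample. With it among the DFL libraries the means were 0.8 and 4.0 (exact permutation test, p = 0.0397). Estimated totals were 48.8 and 52.7 M tags in wt PFL and 37.9 and 37.5 M in 542 PFL, against 40.2 to 54.5 M in DFL, 51.4 to 70.7 M in FB and 78.0 M in the earlier library, and the part of depth in these regions was not tested. In the same libraries the start of Myog, a gene of differentiating muscle, was accessible in 4 of 4 PFL, 2 of 4 DFL and 0 of 4 FB libraries, that of Myf5, a gene of muscle precursors, in 3, 1 and 0, and of 5 muscle markers 3 to 5 had a start region in PFL, 2 to 3 in DFL and 2 in FB. Of 4 hindbrain and spinal cord markers, 2 to 4 had one in PFL, 3 in each DFL library and 2 to 3 in FB. Their part in the Hoxb4 to Hoxb1 regions was not tested.

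The most regular of these regions lay in an exon of Hoxb2, a gene of hindbrain motor neurons, at chr11:96352734-96353641, which also overlaps the antisense transcript Hoxb3os. It had 0.635 and 0.494 CPM in wt PFL and 0.422 and 0.480 in 542 PFL, and 0.385 in the earlier wt DFL library. It was not called in the 4 other DFL or the 4 FB libraries, where the lowest called summits were at 0.240 to 0.299. It was thus called in 4 of 4 PFL and 0 of 4 DFL libraries, as 1 of the 24 HoxB regions, where 1.49% of all consensus regions of the genome had this pattern and 2.05% the reverse. A second region, 3.0 kb after the Hoxb2 start over Hoxb3os, was called in 3 of 4 PFL libraries at 0.418 to 0.554 CPM. Regions in the coding part of Hoxb4 and over an exon of Gm11536 near Hoxb3 were each called in 2 PFL libraries, and the other 5 in 1 each. Of the 9 regions 6 had their summit in an exon. Their median GC content was 64.7%, against 46.8% over all regions of the genome.

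Beyond Hoxb1, where the annotation holds no coding gene within the window, the most regular HoxB regions were found. The region 41.7 kb beyond the Hoxb1 start was called in 12 of 12 libraries. It had 0.753 and 0.863 CPM in wt DFL, 0.629 and 0.622 in 542 DFL, 0.492 and 0.551 in wt PFL, 0.528 and 0.614 in 542 PFL, 0.495 and 0.566 in wt FB, and 0.713 and 0.778 in 542 FB. In CPM the DFL libraries lay above the PFL libraries and FB spanned both, but on the normalised log2 scale of the test DFL and PFL overlapped, with 542 PFL replicate 2 at 5.11 and 542 DFL replicate 2 at 5.02.

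This was the single HoxB region that could be tested for height across the genome, among 27032 regions called in all 12 libraries. On the log2 scale of normalised tags, limb and FB differed by 0.16 ± 0.18 (SE, limma, adjusted p = 0.453), DFL and PFL by 0.37 ± 0.21 (limma, adjusted p = 0.238, unadjusted p = 0.0777) and 542 and wt by 0.20 ± 0.17 (limma, adjusted p = 0.564). In this main setting it passed none of the 3 tests, by unadjusted p either. Of the regions tested, limma called 27.9% higher in limb and 27.3% higher in FB, 9.63% higher in DFL and 6.40% higher in PFL, and 3.0% higher in 542 and 1.91% higher in wt. The change of genotype effect between DFL and PFL was -0.40 ± 0.41 (SE, limma, adjusted p = 0.816).

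The region 47.5 kb beyond Hoxb1 separated limb from FB. It had 0.753 and 0.727 CPM in wt DFL, 0.484 and 0.448 in 542 DFL, 0.738 and 0.854 in wt PFL and 0.898 and 0.827 in 542 PFL, and 0.795 in the earlier wt DFL library. In FB it was not called, where the lowest called summits were at 0.240 to 0.272 CPM. Over all deposited regions it was present in 8 of 8 limb and 0 of 4 FB libraries (Fisher's exact test, p = 0.00202, adjusted over 252027 consensus regions p = 0.0197). It was the single one of 24 HoxB regions called by this test, where 3.81% of all consensus regions were called higher in limb and 6.43% higher in FB, so that the count lies near the background.

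Among the 50000 strongest regions it was present in 6 of 8 limb and 0 of 4 FB libraries (Fisher's exact test, p = 0.0606, adjusted p = 0.256), both 542 DFL libraries holding it below their 50000 strongest. There the test called 0 of 7 HoxB regions, 0 of them at an unadjusted p under 0.05, where 4.82% of consensus regions were called higher in limb and 8.80% higher in FB. None of the 7 was in all DFL and no PFL libraries or the reverse, patterns shown by 2.54% and 2.02% of consensus regions.

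Counted as a segment, the stretch beyond Hoxb1 held 2 regions in each limb library but 542 PFL replicate 1, which held 3, and 1 in each FB library. Limb and FB differed (exact permutation test, two-sided, p = 0.00202, adjusted p over 10 segment tests = 0.0202). The region called in all 12 libraries makes up 1 of these regions in every library, and the region 47.5 kb beyond Hoxb1 makes up 1 in each limb library. Apart from the third region of 542 PFL replicate 1, the segment difference is thus the presence of this limb region. It restates the test of that region given above and is not a separate result. Among the 50000 strongest regions the means were 1.38 and 0.50 (exact permutation test, p = 0.0566, adjusted p = 0.566).

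Beyond Hoxb13, at the other edge of the window, an interval inside Ttll6, a tubulin-modifying enzyme gene, held a region that overlapped its coding sequence (chr11:96145611-96146048). It was called in 4 of 4 FB, 3 of 4 DFL and 2 of 4 PFL libraries. Its height was 1.12 and 0.902 CPM in wt FB, 0.806 and 0.584 in 542 FB, 0.808 and 0.727 in wt DFL, 0.387 in 542 DFL replicate 1, 0.304 in wt PFL replicate 2 and 0.347 in 542 PFL replicate 2. The wt FB libraries were the highest and the called PFL libraries the lowest. Wt DFL replicate 1 and the earlier wt DFL library, at 0.86 CPM, lay above both 542 FB libraries. The Hoxb13 start region had 0.477 CPM in wt DFL replicate 1, 0.396 and 0.460 in wt FB and 0.488 in the earlier wt DFL library, and was not called in PFL or in 542. A region 36.3 kb before Hoxb9, in the spacer, was called in 3 of 4 FB libraries and 1 PFL library at 0.350 to 0.534 CPM.

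The letters of the regions were compared with those of all 252027 consensus regions in windows of the same length. The exact CTCF core consensus was found in 0 of 24 HoxB regions and in 2.11% of all regions. With at most 1 mismatch it was found in 3 of 24, against 7.59%, and with at most 2 mismatches in 12 of 24, against 24.2%. Of the 7 HoxB regions called in 6 or more libraries, 6 held such a match, against 44.9% of the 27032 regions called in all 12 libraries. These 2 sets are unlike, as the share among all regions called in 6 or more libraries was not computed. Neither set was matched for GC content. In the sequences printed above the middle of the match nearest the summit lay at offsets of -21 to 5 bases from it. The looser limits were chosen after the sequences were seen, and a match is a description of letters and not a binding site.

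The motif TGATNNAT of HOX and PBX pairs was in 0 of 24 HoxB windows and 8.72% of all windows, both strands searched. CCATAAA, the form preferred by HOX13 proteins, was in 0 of 24 and 4.05%. CTCATAAA was in 1 of 24, at the Hoxb13 start, and in 1.65%. Paired retinoic acid receptor half-sites with 5 or 2 bases between them were in 0 of 24, and in 0.106% and 0.0897% of all windows. GGGCGG, the Sp1 motif of GC-rich promoters, was in 4 of 24 windows and in 8.13% of all. The median GC content was 61.9% in HoxB windows and 46.8% in all windows.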

How the data were processed

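The authors trimmed adapters with Cutadapt, aligned read pairs with bowtie2 to mm10 (wt) or to the genome carrying the insertion (542), removed poorly mapped, mitochondrial and duplicate reads, and called peaks in each library alone with MACS2, on tags centred on the Tn5 cut. The deposited fold is a ratio of tags at the summit plus 1 to local background plus 1. The deposited −log10 p-values and q-values and the score come from the same caller, and the score was not used. These values carry no normalization between libraries.

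Summits sharing a start and an end were taken as 1 region with its strongest summit. Tags were recovered as whole numbers from fold and p (tolerance 0.001 on −log10 p, 99.4% to 100.0% of summits), and library totals from the most frequent background, so that depths are estimates. The 50000 strongest regions per library were the main lists, and lists of all deposited regions an alternative. Consensus regions were joined by an overlap of 1 bp, without chromosome 2 from 75 Mb, where the genomes' coordinates differ. GENCODE M21 gave the genes.

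Tests were exact permutations over libraries, Fisher's exact test per consensus region with Benjamini-Hochberg adjustment, and limma 3.58.1 on log2 tags scaled by median ratios with 6 group means, all two-sided at 0.05. Python 3.11.15 and R 4.3.3 were used, and the limma test of heights was checked on simulated data. Start regions of markers and regulators lay within 500 bp of a start, without genes on the stretch left out. A few listed items are not reported here. Named were the region at each Hoxb start, the 3 strongest per segment, those past a test, and those over noncoding genes. Members and lists were chosen with earlier results of these data known. The comparison with other clusters and that of genotype by segment were added after values were seen. Alternatives tried were stricter lists (20000 strongest, fold of at least 5, −log10 q of at least 10), summits counted separately, gene bodies only, windows of 500 bp, the earlier library included, other scalings of height, and each library left out.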

Additional observations from a re-analysis of the deposited data

Results flagged for a closer look

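Of 53 groups of values examined, 5 held 1 library far from the rest. The cut-off gives about 1 in 20 by chance for independent continuous values. These groups overlap and several hold small counts, so that this rate does not apply to them. The wt FB replicate 1 library, the deepest of the 12, held 3 HoxB regions among its 50000 strongest, where the other FB libraries held 2 each, and its summed height was 2.38 CPM, where the others had 1.5 to 1.52. In the stretch beyond Hoxb1 the 542 PFL replicate 1 library held 3 regions, where the other PFL libraries, and the other limb libraries, held 2 each. In the region 41.7 kb beyond Hoxb1 the same library had a log2 height of 4.69, where the other 542 libraries had 5.02 to 5.13.

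The earlier wt DFL library, which is in none of the groups of 2 libraries, held 3 HoxB regions that none of the 12 libraries had. They lay in an exon of the noncoding gene Gm53 in the spacer before Hoxb9, with a fold of 3.75, in an exon of Hoxb8, with a fold of 2.36, and in an intron of Hoxb4, with a fold of 2.36.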

How the results depend on the processing

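With all deposited regions in place of the 50000 strongest, the DFL minus PFL difference reversed in number (-4.25 regions) and in height (-1.58 CPM), the 542 minus wt difference in number passed 0.05 by unadjusted p alone (-3.17), and 1 segment of limb against FB, 1 region by presence between limb and FB and 1 region between DFL and PFL were called in place of 0. These lists are longer by construction. The calls by segment and by presence between limb and FB rest on the same region, 47.5 kb beyond Hoxb1. By unadjusted p the 542 minus wt difference in number was also under 0.05 with a fold of at least 5 (-2.17), with a −log10 q of at least 10 (-2.0), with the earlier library (-1.61) and within gene bodies and the spacer (-1.33), and that in height was 0 in the 20000 strongest, which held no HoxB region. Limb minus FB, near 0 in the main lists, reversed in number (-0.25, -0.125 and -0.25) and in height (-0.188, -0.109 and -0.102) with the fold limit, the q limit and gene bodies only. Leaving out 1 library, it ranged from -0.25 to 0.375 regions and from -0.252 to 0.261 CPM, DFL minus PFL in height from -0.0396 to 1.04, 542 minus wt from -1.83 to -1.5 regions and from -1.46 to -1.17 CPM (-3.67 to -2.67 regions over all deposited regions), and the regions in all DFL and no PFL library or the reverse from 0 to 1. The causes were not tested.

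For the region in all 12 libraries, limb minus FB reversed with library totals (-0.014) and with the deposited fold (-0.069). A mean of at least 40 tags left no HoxB region to test. With the replicate block its differences remained 0.16, 0.37 and 0.20 and no call changed. Replicate numbers did not pair the libraries: correlations of same-numbered deviations ran from -0.073 to 0.040 over 15 pairs of groups. HoxB regions held 13 to 79 tags at their summits, so that depth limits which of them could be called.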
